A study of Mus musculus with 12 samples.

Results

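The 32 genes described here code for nucleolar proteins and for factors that build ribosomes. They were taken by gene symbol from the deposited expression tables of mouse G1E-ER4 cells, and all 32 were among the 55487 genes listed there. Ribosomes are made in the nucleolus, where RNA polymerase I transcribes the long precursor of ribosomal RNA. Small nucleolar ribonucleoproteins (snoRNPs) guide its chemical modification, box C/D particles methylating riboses and box H/ACA particles converting uridine to pseudouridine. Assembly factors then fold, cut and package the precursor into the small and the large subunit together with the ribosomal proteins, and erythroid precursors are known to be sensitive to defects in these steps.

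G1E-ER4 cells are mouse erythroid progenitors without GATA1, the main erythroid transcription factor, into which a version switched on by estradiol was introduced. ZIP10, encoded by Slc39a10, is a zinc importer of the plasma membrane, and DTPA is a chelator that binds zinc and other metals outside the cell. The 4 groups were siZIP10 plus DTPA (an siRNA against ZIP10 and 25 µM DTPA), siControl plus DTPA (a control siRNA and 25 µM DTPA), siZIP10 (that siRNA with no DTPA) and siControl (the control siRNA with no DTPA). All cells were nucleofected with siRNA on 2 occasions 24 h apart, were induced to differentiate with 100 nM estradiol at the later one, and were harvested 24 h after induction. DTPA was present from induction on. The labels name neither another ZIP10 siRNA nor a group with zinc added back, and no zinc or protein measurement was used here.

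Expression is given in TPM, the share of a library's transcripts that a gene holds after correction for its length. The values given for siControl plus DTPA replicate 3 were those of siZIP10 replicate 1 in all 55487 genes, so that library was left out and siControl plus DTPA had n = 2. The other 3 groups had n = 3, which makes 11 libraries. The labels call the samples biological replicates and say no more of their origin, so the p-values measure the spread between these samples. Read depth recovered from the TPM values was 19.62 to 24.68 M reads (M, mega) per library, and every member had at least 136 reads in every library. Slc39a10, the target of the siRNA, was at 4.93 to 5.36 TPM in siZIP10 plus DTPA and 20.3 to 22.0 TPM in siControl plus DTPA. It was at 0.507 to 0.837 TPM in siZIP10, against 2.31 to 2.78 TPM in siControl, so the doubly treated cells held more of the transcript than siControl cells. The double treatment also shifted other features of the libraries. Mitochondrial ribosomal RNA took 1.43% to 1.45% of TPM in siZIP10 plus DTPA, 0.335% to 0.352% in siControl plus DTPA and 0.372% to 0.421% in siZIP10, against 0.262% to 0.282% in siControl. The 10 erythroid markers were detected in every library, and their summed level was 38448.2 to 46304.4 TPM in siZIP10 plus DTPA, against 40754.3 to 47605.6 TPM in siControl, while 7 of the 10 fell and 2 rose. Of 20 markers of lymphoid, myeloid, megakaryocyte or mast cell and basophil identity, 8 were at 0 in every library, among them Fcer1a and Mpo. The summed level of the 5 mast cell and basophil markers was nonetheless 20.8 to 22.7 TPM in siZIP10 plus DTPA, against 0.832 to 1.26 TPM in siControl, nearly all of it from Hdc. The summed level of the 5 megakaryocyte markers was 7.93 to 8.66 TPM, against 2.46 to 4.14 TPM, that of the 5 myeloid markers 5.86 to 6.8 TPM, against 2.33 to 3.32 TPM, and that of the 5 lymphoid markers 2.38 to 3.15 TPM, against 0.296 to 1.08 TPM, in the same 2 groups. Their part in the results below was not tested.

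Changes are differences of log2(TPM + 1) between group means with their standard error (SE), which understate the change of genes of low level. They were tested with limma in one fit over the 11 libraries, and p-values were adjusted by the Benjamini-Hochberg method over the 11379 genes that averaged 1 TPM or more. All 32 members passed that filter. A gene is said to rise or fall where its adjusted p was below 0.05.

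Promoters are shown first because, with TPM as deposited, 4 of the 5 members that rose with the double treatment alone shared a short sequence there. The windows span 250 bases before to 50 bases after the start of the gene and come from RefSeq on GRCm38.p6, whose table held 27 of the 32 members. Capitals mark CACGTG, the E-box that MYC and related factors can bind, and TCTCGCGA, a motif found in promoters of ribosomal protein and other housekeeping genes. Both were searched on both strands.
Tsr1 (chr11:74897830-74898129, plus strand): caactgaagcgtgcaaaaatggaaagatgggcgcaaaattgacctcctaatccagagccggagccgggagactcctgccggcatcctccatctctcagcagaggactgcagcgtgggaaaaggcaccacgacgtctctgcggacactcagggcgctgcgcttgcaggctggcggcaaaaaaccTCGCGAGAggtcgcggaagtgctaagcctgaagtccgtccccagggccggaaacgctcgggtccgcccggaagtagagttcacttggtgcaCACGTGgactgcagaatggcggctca
Wdr43 (chr17:71615965-71616264, plus strand): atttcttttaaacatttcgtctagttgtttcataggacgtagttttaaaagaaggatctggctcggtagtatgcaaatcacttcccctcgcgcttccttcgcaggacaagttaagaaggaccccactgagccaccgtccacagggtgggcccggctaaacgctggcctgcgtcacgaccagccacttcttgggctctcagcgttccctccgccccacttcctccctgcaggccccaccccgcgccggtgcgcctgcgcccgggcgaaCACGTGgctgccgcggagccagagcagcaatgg
Nop2 (chr6:125131633-125131932, plus strand): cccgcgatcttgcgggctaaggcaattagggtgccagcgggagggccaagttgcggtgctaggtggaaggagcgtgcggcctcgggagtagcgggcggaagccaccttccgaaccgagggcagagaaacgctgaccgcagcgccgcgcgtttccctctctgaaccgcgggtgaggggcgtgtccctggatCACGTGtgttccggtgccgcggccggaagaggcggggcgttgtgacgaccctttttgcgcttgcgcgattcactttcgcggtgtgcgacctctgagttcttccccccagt
Mybbp1a (chr11:72441077-72441376, plus strand): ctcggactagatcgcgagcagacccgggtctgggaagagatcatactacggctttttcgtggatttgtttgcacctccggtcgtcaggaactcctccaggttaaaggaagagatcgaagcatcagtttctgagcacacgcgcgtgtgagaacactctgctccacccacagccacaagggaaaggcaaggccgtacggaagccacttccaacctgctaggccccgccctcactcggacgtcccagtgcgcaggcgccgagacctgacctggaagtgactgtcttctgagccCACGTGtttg
Pes1 (chr11:3963725-3964024, plus strand): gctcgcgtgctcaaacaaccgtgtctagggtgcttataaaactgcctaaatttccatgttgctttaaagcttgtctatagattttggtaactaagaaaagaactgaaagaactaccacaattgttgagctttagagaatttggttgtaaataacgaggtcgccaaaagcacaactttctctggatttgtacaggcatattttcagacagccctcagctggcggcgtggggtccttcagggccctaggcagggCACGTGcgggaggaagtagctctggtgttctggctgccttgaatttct
Ltv1 (chr10:13193088-13193387, minus strand): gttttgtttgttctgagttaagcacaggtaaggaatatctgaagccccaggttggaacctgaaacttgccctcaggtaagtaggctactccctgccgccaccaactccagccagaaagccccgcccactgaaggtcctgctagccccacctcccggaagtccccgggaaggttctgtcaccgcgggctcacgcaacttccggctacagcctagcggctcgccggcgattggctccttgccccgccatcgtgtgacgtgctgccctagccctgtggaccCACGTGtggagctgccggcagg
Dkc1 (chrX:75095604-75095903, plus strand): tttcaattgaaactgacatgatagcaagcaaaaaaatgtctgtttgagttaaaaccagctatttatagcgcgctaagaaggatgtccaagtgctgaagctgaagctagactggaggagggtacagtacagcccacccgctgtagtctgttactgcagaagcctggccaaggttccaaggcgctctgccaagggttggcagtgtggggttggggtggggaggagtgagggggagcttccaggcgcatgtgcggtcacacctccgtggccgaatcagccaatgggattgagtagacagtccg

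The first 4 of these genes rose in siZIP10 plus DTPA relative to siControl. Pes1 fell, Ltv1 did not pass the test, and Dkc1 fell and is shown for contrast. Dkc1 has no CACGTG in its window but holds the variant CACATG on the opposite strand, which capitals do not mark. The E-box began 25 bases after the start in Tsr1, 18 after it in Wdr43, 41 after it in Mybbp1a, 29 after it in Ltv1 and 3 after it in Pes1, counting the start as base 1, and 60 bases before it in Nop2. CACGTG was present in 6 of 27 members (22.2%), in 19.2% of other ribosome biogenesis genes, in 10.2% of ribosomal protein genes and in 8.09% of all 27025 genes in the table, tested or not. Counting CACGTG or CACATG, the shares were 12 members (44.4%), 25% of other ribosome biogenesis genes, 18.6% of ribosomal protein genes and 22.7% of all genes. TCTCGCGA was present in 3 members (11.1%), namely Tsr1, Nop58 and Nop14. It was in 4.81% of other ribosome biogenesis genes, in 18.6% of ribosomal protein genes and in 1.13% of all genes in the table, tested or not. Split by the call in siZIP10 plus DTPA against siControl, the E-box was in 4 of 4 members that rose, 1 of 11 that fell and 1 of 12 that did not pass the test; Rrp12, which also rose, was not in the table. The other ribosome biogenesis genes did not show that split, with CACGTG in 17.6% of those that rose, 25.5% of those that fell and 11.4% of the rest. Over the 7733 tested genes with a promoter in the table the shares were 12.1%, 13.5% and 12%, and 12.7% together. Of the 4 members that rose and hold the E-box, only Tsr1 rose under all the alternative analyses given below. The limma calls of Nop2 (0.20, adjusted p = 0.0363), Mybbp1a (0.13, adjusted p = 0.0338) and Wdr43 (0.15, adjusted p = 0.0166) lay nearer the threshold. Fewer members rose when siControl replicate 2 was left out. The split was noticed after the values were seen, was counted on TPM as deposited and was not tested. With libraries scaled by the median of ratios instead, 11 members rose with both treatments. They include 1 box H/ACA and 1 RNA polymerase I gene, roles without CACGTG in any window.

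**Figure D1:**
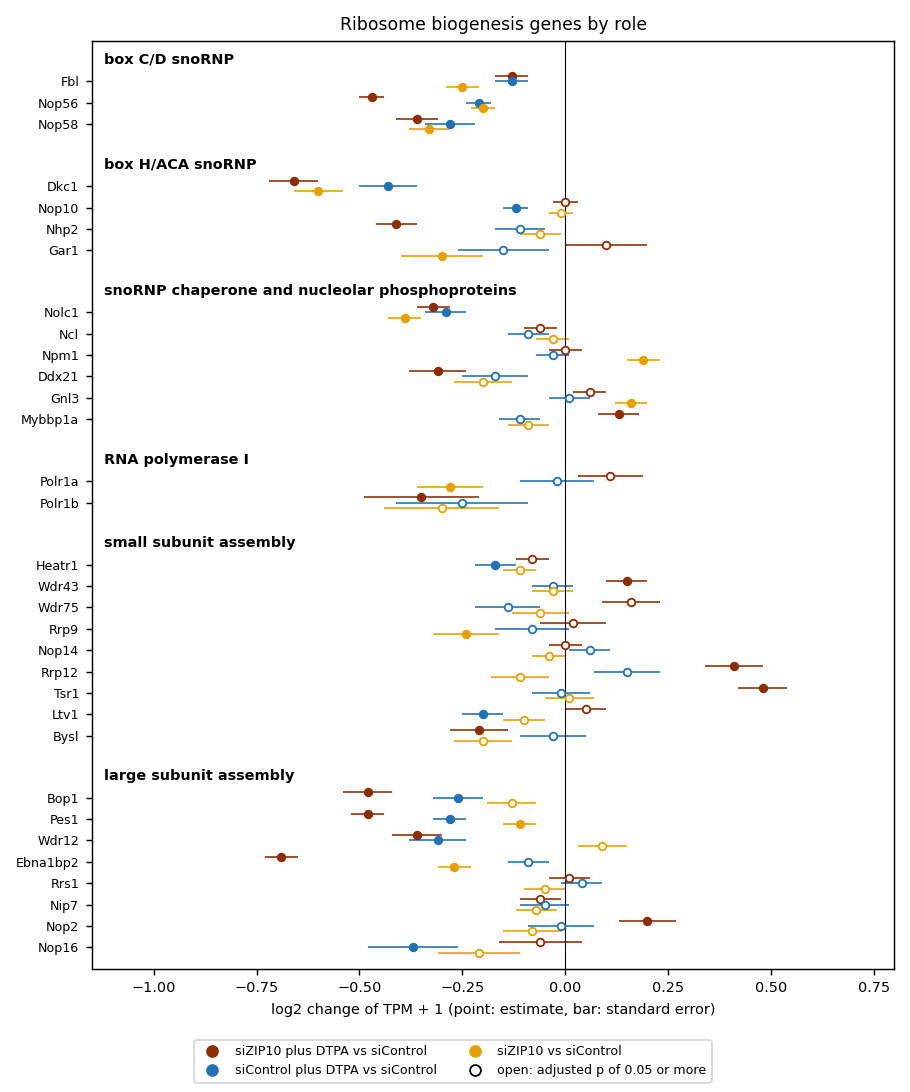
Log2 change of TPM + 1 relative to siControl for the 32 members, grouped by role, in siZIP10 plus DTPA, siControl plus DTPA and siZIP10. Points are estimates, bars are standard errors, and filled points have an adjusted p below 0.05. The double treatment spread the members between -0.69 (Ebna1bp2) and 0.48 (Tsr1).

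In siZIP10 plus DTPA relative to siControl, 5 of the 32 members rose and 13 fell. Of all genes tested, 26.7% rose and 39.9% fell, so the share of members that fell, 40.6%, was near that of all genes, and the share that rose, 15.6%, was below it. The difference in the share that rose depends on the scaling: with libraries scaled by the median of ratios 11 members rose (34.4%, against 33.5% of all genes), and with libraries rescaled to genes other than mitochondrial and ribosomal protein genes 9 rose (28.1%, against 32%). The median change was -0.06 for the members and -0.08 for all genes. With DTPA alone, in siControl plus DTPA relative to siControl, no member rose and 12 fell (37.5%), while 9.98% of all genes rose and 18.8% fell, and the median was -0.11, against -0.04 for all genes. With the knockdown alone, in siZIP10 relative to siControl, 2 members rose and 10 fell (31.2%), while 13.1% of all genes rose and 17.5% fell, and the median was -0.11, against -0.01. These counts rest on single libraries in part: 7 members fell with DTPA alone without siControl plus DTPA replicate 2, 6 fell with the knockdown alone without siZIP10 replicate 2, and 1 rose with it without siControl replicate 2 or 3 or siZIP10 replicate 3. With both treatments, 2 rose without siControl replicate 2 and 3 rose without siControl replicate 3 or siZIP10 plus DTPA replicate 1 or 3. No member changed by 1 or more on the log2 scale in any comparison. Dkc1, Fbl, Nolc1, Nop56, Nop58 and Pes1 fell in all 3 of these groups relative to siControl. Mybbp1a, Nop2, Rrp12, Tsr1 and Wdr43 rose with the double treatment and passed the test with neither treatment alone. The 3 comparisons share their siControl libraries, and the share of all genes with either pattern was not counted.

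The box C/D snoRNP proteins fell with each treatment. Fibrillarin (Fbl) is the methyltransferase of these particles, and Nop56 and Nop58 form their scaffold. Nop56 was at 59.5, 60.2 and 58 TPM in siZIP10 plus DTPA, 70.1 and 71.8 TPM in siControl plus DTPA, and 71.6, 69.6 and 72.7 TPM in siZIP10, against 84.2, 80.5 and 82.3 TPM in siControl. All doubly treated libraries lay below those of either single treatment, which in turn lay below siControl. The change was -0.47 (SE 0.03, adjusted p = 1.26e-07) with both treatments, -0.21 (SE 0.03, adjusted p = 0.000767) with DTPA alone and -0.20 (SE 0.03, adjusted p = 0.000478) with the knockdown alone. The interaction, the DTPA effect with the knockdown minus that without it, was -0.05 (SE 0.04, adjusted p = 0.43) for Nop56. Nop58 was at 13.4, 12.6 and 12.9 TPM in siZIP10 plus DTPA, 13.9 and 13.7 TPM in siControl plus DTPA, and 13.1, 13.3 and 13.6 TPM in siZIP10, against 18.4, 16.2 and 16.5 TPM in siControl. Here the 3 treated groups lay close together and below every siControl library, with changes of -0.36 (adjusted p = 0.000124), -0.28 (adjusted p = 0.00559) and -0.33 (adjusted p = 0.00114). Fbl was at 70.8, 68.7 and 74.5 TPM in siZIP10 plus DTPA, 71.7 and 71.7 TPM in siControl plus DTPA, and 64.7, 64.5 and 68.6 TPM in siZIP10, against 78.6, 79.7 and 76.9 TPM in siControl. Its fall was steepest with the knockdown alone, at -0.25 (SE 0.04, adjusted p = 0.00055). The change of -0.13 with both treatments (adjusted p = 0.00662) was lost when the libraries were scaled by the median of ratios (-0.04), and that of -0.13 with DTPA alone (adjusted p = 0.0387) held in 9 of 19 alternatives.

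Among the box H/ACA proteins, Dkc1 fell with every treatment and the others differed from it. Dyskerin (Dkc1) is the pseudouridine synthase of these particles and also binds telomerase RNA, and Nhp2, Nop10 and Gar1 complete the core. Dkc1 was at 13.5, 13.1 and 13.1 TPM in siZIP10 plus DTPA, 14.4 and 16.9 TPM in siControl plus DTPA, and 13.4, 13.4 and 14.7 TPM in siZIP10, against 21.9, 20.6 and 21.6 TPM in siControl. The treated groups reached 61.7%, 73.2% and 64.6% of the siControl mean, with no overlap. The changes were -0.66 (SE 0.06, adjusted p = 3.25e-06) with both treatments, -0.43 (SE 0.07, adjusted p = 0.000927) with DTPA alone and -0.60 (SE 0.06, adjusted p = 5.34e-05) with the knockdown alone, and they held in all 19 alternatives. The interaction was 0.37 (SE 0.09, adjusted p = 0.0105), and the double treatment lowered Dkc1 by less than the sum of the single effects. Nhp2 was at 70.7, 68.1 and 66.2 TPM in siZIP10 plus DTPA, 83.3 and 85.8 TPM in siControl plus DTPA, and 84.6, 93.6 and 84.6 TPM in siZIP10, against 90.8, 85.3 and 98.1 TPM in siControl. Only the doubly treated libraries stood apart, at -0.41 (SE 0.05, adjusted p = 5.59e-05), while the changes of -0.11 with DTPA and -0.06 with the knockdown had adjusted p = 0.217 and 0.457. Nop10, the second most abundant member, ranged over 395.8 to 415.2 TPM in siZIP10 plus DTPA and 374.3 to 376.9 TPM in siControl plus DTPA, against 400.8 to 417.1 TPM in siControl. It fell by 0.12 with DTPA alone (adjusted p = 0.0172), a call that held in 13 of 19 alternatives. Gar1 fell by 0.30 with the knockdown alone (adjusted p = 0.04), which held in 10 of 19, and was at 0.10 (adjusted p = 0.388) with both treatments.

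**Figure D2:**
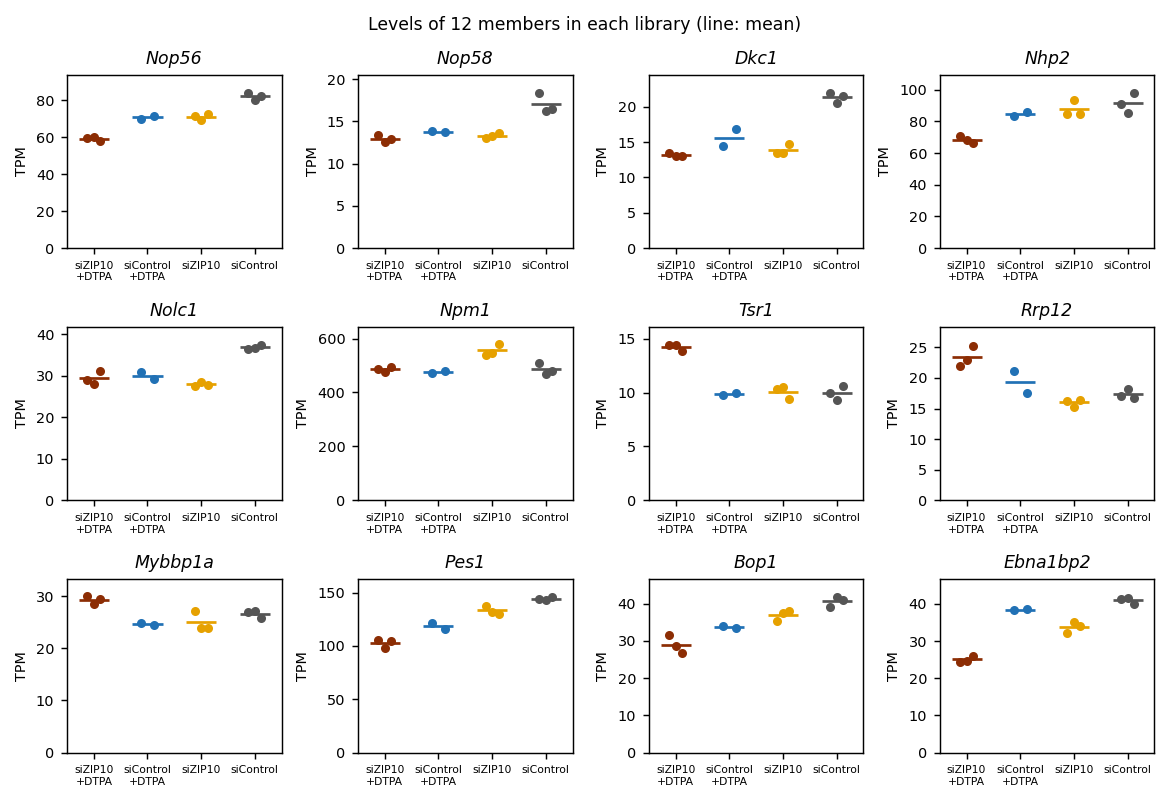
TPM of 12 members in each library, with siZIP10 plus DTPA, siControl plus DTPA, siZIP10 and siControl from left to right. Points are libraries and lines are group means, on axes that start at 0. Nop56, Dkc1 and Ebna1bp2 are below siControl in the doubly treated cells, Tsr1 and Rrp12 above it, and Npm1 is level with it.

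Among the snoRNP chaperone and nucleolar phosphoproteins, Nolc1 and Ddx21 fell with the double treatment, Mybbp1a rose, and the abundant Npm1 and Ncl did not pass the test. Nolc1 (Nopp140) is a phosphoprotein that binds snoRNPs. It was at 28.9, 28.1 and 31.1 TPM in siZIP10 plus DTPA, 31 and 29.1 TPM in siControl plus DTPA, and 27.5, 28.5 and 27.8 TPM in siZIP10, against 36.5, 36.6 and 37.5 TPM in siControl. All treated libraries lay below siControl, with changes of -0.32 (SE 0.04, adjusted p = 6.11e-05), -0.29 (SE 0.05, adjusted p = 0.00122) and -0.39 (SE 0.04, adjusted p = 8.62e-05), and an interaction of 0.36 (adjusted p = 0.00171). Ddx21, an RNA helicase of the nucleolus, was at 26.7, 23.9 and 28.3 TPM in siZIP10 plus DTPA, 30.4 and 27.9 TPM in siControl plus DTPA, and 30.1, 27.5 and 27.8 TPM in siZIP10, against 35.5, 30.2 and 33.1 TPM in siControl. It fell by 0.31 with both treatments (SE 0.07, adjusted p = 0.00324). Mybbp1a, a nucleolar protein that binds MYB, was at 30, 28.6 and 29.4 TPM in siZIP10 plus DTPA, 24.9 and 24.5 TPM in siControl plus DTPA, and 27.1, 24 and 24 TPM in siZIP10, against 27, 27.1 and 25.9 TPM in siControl. Its rise of 0.13 (SE 0.05, adjusted p = 0.0338) held in 12 of 19 alternatives.

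Nucleophosmin (Npm1), a histone and ribosome chaperone and the most abundant member, was at 487.7, 477.5 and 495.4 TPM in siZIP10 plus DTPA, 471.3 and 480.7 TPM in siControl plus DTPA, and 539.4, 548 and 579.6 TPM in siZIP10, against 509.5, 468.7 and 480.6 TPM in siControl. It rose with the knockdown alone, by 0.19 (SE 0.04, adjusted p = 0.00245), and was at 0.00 with both treatments (adjusted p = 0.957). In siZIP10 plus DTPA relative to siZIP10 it fell by 0.19 (adjusted p = 0.000868). Nucleolin (Ncl), which binds ribosomal DNA and precursor RNA, was at 175, 172.9 and 184.2 TPM in siZIP10 plus DTPA, 172.8 and 173.5 TPM in siControl plus DTPA, and 179.5, 174.6 and 186.7 TPM in siZIP10, against 197.9, 176.6 and 178.9 TPM in siControl. It passed the test in none of the 6 comparisons, and its groups overlap, except that siControl plus DTPA lies below siZIP10 and siControl. Gnl3 (nucleostemin), a nucleolar GTPase, rose by 0.16 with the knockdown alone (adjusted p = 0.0212), which held in 15 of 19 alternatives.

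The RNA polymerase I subunits Polr1a and Polr1b, which form the catalytic core of the enzyme, were the least abundant members. Polr1a was at 5.33, 5.07 and 5.19 TPM in siZIP10 plus DTPA, 4.96 and 4.38 TPM in siControl plus DTPA, and 3.81, 3.41 and 4.07 TPM in siZIP10, against 4.78, 4.76 and 4.71 TPM in siControl. It fell with the knockdown alone, by 0.28 (SE 0.08, adjusted p = 0.0253; held in 10 of 18 alternatives), and was 0.38 higher in siZIP10 plus DTPA than in siZIP10 (adjusted p = 0.0018). Polr1b was at 3.98, 5.32 and 4.15 TPM in siZIP10 plus DTPA, 4.35 and 5.34 TPM in siControl plus DTPA, and 5.49, 4.26 and 4.27 TPM in siZIP10, against 5.41, 7.11 and 5.42 TPM in siControl. Its libraries spread widely within groups, and its fall of 0.35 with both treatments (SE 0.14, adjusted p = 0.0471) held in 8 of 19 alternatives.

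Small subunit factors held 3 of the 5 members that rose with the double treatment. Tsr1, a GTPase-like factor bound to late precursors of the small subunit, was at 14.4, 14.4 and 13.9 TPM in siZIP10 plus DTPA, 9.8 and 9.92 TPM in siControl plus DTPA, and 10.3, 10.5 and 9.38 TPM in siZIP10, against 9.97, 9.33 and 10.6 TPM in siControl. The 3 doubly treated libraries stood above all 8 others, which overlap one another. The changes were 0.48 (SE 0.06, adjusted p = 3.48e-05) with both treatments, -0.01 (adjusted p = 0.915) with DTPA alone and 0.01 (adjusted p = 0.911) with the knockdown alone, and the interaction was 0.48 (SE 0.09, adjusted p = 0.00213). Exons of Tsr1 share 1240 bases with Srr on the opposite strand, which was at -0.00 and did not pass the test. Rrp12, a repeat protein needed for maturation and export of subunits, was at 22, 22.9 and 25.3 TPM in siZIP10 plus DTPA, 21.1 and 17.6 TPM in siControl plus DTPA, and 16.3, 15.3 and 16.4 TPM in siZIP10, against 17.1, 18.2 and 16.8 TPM in siControl. Its doubly treated libraries lay above all others, and it rose by 0.41 (SE 0.07, adjusted p = 0.000479). Wdr43 rose by 0.15 (SE 0.05, adjusted p = 0.0166), which held in 17 of 19 alternatives.

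Bysl (bystin), which acts late in the same pathway, went the other way. It was at 20.6, 19.2 and 23.8 TPM in siZIP10 plus DTPA, 24.9 and 23.3 TPM in siControl plus DTPA, and 21.7, 21.8 and 20.4 TPM in siZIP10, against 26.2, 24.1 and 23.6 TPM in siControl. The doubly treated and siControl libraries overlap, and the fall of 0.21 (SE 0.07, adjusted p = 0.0259) held in 12 of 19 alternatives. Its exons share 361 bases with Ccnd3 on the opposite strand, which fell by 0.32. Heatr1 and Ltv1, a late small subunit factor, fell with DTPA alone, by 0.17 (adjusted p = 0.0241) and 0.20 (adjusted p = 0.0201), and Rrp9, a protein of the U3 snoRNP, fell with the knockdown alone, by 0.24 (adjusted p = 0.0429). These calls held in 14, 14 and 10 of 19 alternatives for Heatr1, Ltv1 and Rrp9. Heatr1, Wdr43 and Wdr75 belong to the complex that first binds the precursor RNA, and Wdr75 was at 0.16 with both treatments (adjusted p = 0.0701). Nop14, a factor of the early small subunit particle, passed the test in no comparison and ranged from -0.06 to 0.06. The summed level of the 9 small subunit factors was 106.5% of siControl in siZIP10 plus DTPA, 96.6% in siControl plus DTPA and 93.3% in siZIP10.

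Large subunit factors held the steepest fall. Ebna1bp2, a factor of early large subunit particles, was at 24.4, 24.7 and 26.1 TPM in siZIP10 plus DTPA, 38.3 and 38.6 TPM in siControl plus DTPA, and 32.2, 35 and 34.1 TPM in siZIP10, against 41.4, 41.6 and 40 TPM in siControl. No group overlaps another, and the doubly treated cells held 61.2% of the siControl mean. The change was -0.69 (SE 0.04, adjusted p = 7.74e-08) with both treatments, -0.09 (adjusted p = 0.173) with DTPA alone and -0.27 (SE 0.04, adjusted p = 0.000611) with the knockdown alone. The interaction was -0.32 (SE 0.06, adjusted p = 0.0021), opposite in sign to most members. Pes1, Bop1 and Wdr12 form one complex, PeBoW, needed to process the large subunit RNA. Pes1 was at 105.6, 98 and 105.1 TPM in siZIP10 plus DTPA, 121.6 and 115.8 TPM in siControl plus DTPA, and 137.6, 132 and 130.4 TPM in siZIP10, against 144.3, 142.9 and 145.7 TPM in siControl. The 4 groups follow each other without overlap, with changes of -0.48 (SE 0.04, adjusted p = 4.12e-07), -0.28 (SE 0.04, adjusted p = 0.000419) and -0.11 (SE 0.04, adjusted p = 0.0322), the last of which held in 12 of 19 alternatives.

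The partners of Pes1 are given in full because they share its complex, a choice made after their values were seen. Bop1 was at 31.7, 28.6 and 26.8 TPM in siZIP10 plus DTPA, 34 and 33.6 TPM in siControl plus DTPA, and 35.4, 37.6 and 38 TPM in siZIP10, against 39.2, 41.7 and 41.1 TPM in siControl, and it fell by 0.48 with both treatments (SE 0.06, adjusted p = 2.22e-05). Wdr12 was at 7.33, 7.37 and 6.53 TPM in siZIP10 plus DTPA, 7.42 and 7.26 TPM in siControl plus DTPA, and 10.2, 9.64 and 10.3 TPM in siZIP10, against 9.69, 9.21 and 9.09 TPM in siControl. The DTPA libraries of Wdr12 all lie below the others. All 3 subunits fell with DTPA, both without the knockdown (Bop1 -0.26, adjusted p = 0.0103; Wdr12 -0.31, adjusted p = 0.00647) and within it (Pes1 -0.37, Bop1 -0.34 and Wdr12 -0.45, with adjusted p of 4.91e-06, 0.000329 and 8.46e-05). The knockdown alone left Wdr12 at 0.09 (adjusted p = 0.292).

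Nop2, which methylates a cytosine of the large subunit RNA, was the large subunit factor that rose. It was at 30.1, 25.8 and 25.8 TPM in siZIP10 plus DTPA, 23.4 and 23.3 TPM in siControl plus DTPA, and 23, 20.4 and 23.4 TPM in siZIP10, against 25.5, 23 and 22.3 TPM in siControl. The doubly treated libraries lie just above the highest siControl library, and the rise of 0.20 (SE 0.07, adjusted p = 0.0363) held in 14 of 19 alternatives. Nop16, another large subunit factor, fell by 0.37 with DTPA alone (adjusted p = 0.0244; held in 15 of 19 alternatives) and was at -0.06 with both treatments (adjusted p = 0.59). Rrs1 and Nip7, both large subunit factors, passed the test in no comparison. The summed level of the 8 large subunit factors was 78.9% of siControl in siZIP10 plus DTPA, 87.1% in siControl plus DTPA and 91.6% in siZIP10.

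The DTPA effect differed between knockdown and control cells in 19 members, the sum of those above and below 0 in the test of that difference. In siZIP10 plus DTPA relative to siZIP10, 11 members rose and 7 fell, where 23.1% of all genes rose and 37.3% fell. In siZIP10 plus DTPA relative to siControl plus DTPA, 8 members rose and 6 fell, where 21.3% of all genes rose and 31.7% fell. At the threshold, the interaction was above 0 in 60 of 80 ribosomal protein genes (75%) and below 0 in 3. Of the other ribosome biogenesis genes, 14.3% were above and 6.7% below. The interaction was above 0 in 16 members and below 0 in 3, 50% and 9.4% of them, where 12% of all genes were above and 20.4% below. The count above 0 was 6 without siControl plus DTPA replicate 2, which leaves that group with 1 library assumed to vary like the others, 9 without siZIP10 plus DTPA replicate 1 and 10 without siZIP10 replicate 2 or siZIP10 plus DTPA replicate 3. The count below 0 was 1 without any of 6 libraries, and 5 members rose with the knockdown within DTPA without siControl plus DTPA replicate 2. Of the 32 members, 13 were lower with DTPA both without and with the knockdown, 15 were lower without it and higher with it, 3 were higher in both and 1 was higher without and lower with it, counting signs alone. Among the 119 other ribosome biogenesis genes tested, the counts in that order were 60, 32, 24 and 3. The split over all genes was not counted. Some signs rest on almost no change within the knockdown, as for Nip7 (0.00), Nop10 (0.01) and Heatr1 (0.03). The 2 scalings moved the median of all genes in that comparison by 0.071 and 0.086. Across members the 2 DTPA effects, which share no library, had a Pearson r of 0.41 and a Spearman rho of 0.40 (n = 32 genes, which are not independent replicates). Across the 80 ribosomal protein genes r was 0.69 and rho 0.77, and 76 were higher in both. Small subunit factors made up 6 of the 11 members that rose with DTPA within the knockdown, and the large subunit factors 4 of the 7 that fell. The other genes of the pathway did not show that contrast. Of 43 other small subunit genes, 7 rose and 12 fell, and of 50 other large subunit genes, 14 rose and 14 fell.

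**Figure D3:**
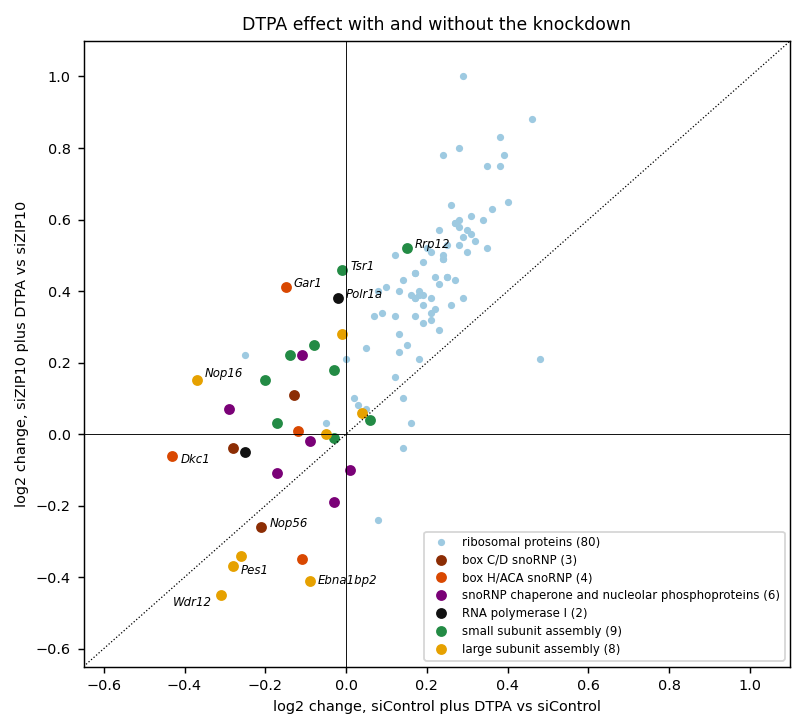
Log2 change with DTPA in knockdown cells (vertical axis, siZIP10 plus DTPA relative to siZIP10) against that in control cells (horizontal axis, siControl plus DTPA relative to siControl) for the 32 members, coloured by role, and 80 ribosomal protein genes. The dotted line marks equal effects. Most ribosomal protein genes lie in the upper right, while 15 members lie in the upper left, some of them with almost no change in knockdown cells.

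Transcripts of the ribosomal proteins themselves rose while those of the factors that assemble them did not rise as a group. Of 80 ribosomal protein genes, 72 rose and 3 fell in siZIP10 plus DTPA relative to siControl, with a median change of 0.41, against -0.06 in the members. With DTPA alone 64 rose and none fell (median 0.21), and with the knockdown alone 8 rose and 10 fell (median -0.01). Rps15a had the steepest rise, at 313.4, 304.8 and 333.1 TPM in siZIP10 plus DTPA, against 182.9, 157.5 and 159.9 TPM in siControl, a change of 0.93 (SE 0.05, adjusted p = 5.3e-08). Rpsa fell most, at 2682.6, 2750.7 and 2809.4 TPM in siZIP10 plus DTPA, against 3366.5, 3350.1 and 3458.2 TPM in siControl, a change of -0.30 (SE 0.03, adjusted p = 2.18e-06). Many ribosomal protein genes and Npm1 have processed pseudogenes, and how reads shared with them were counted is not given in the sources used here.

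The summed level of the 32 members was 1936.8 ± 45.3 TPM in siZIP10 plus DTPA (SD, n = 3), 1922.2 ± 2.19 TPM in siControl plus DTPA (n = 2) and 2046.2 ± 32.2 TPM in siZIP10 (n = 3), against 2073.5 ± 51.0 TPM in siControl (n = 3). Npm1, Nop10 and Ncl weighed most in these sums, averaging 486.3, 407.5 and 184.5 TPM in siControl. With both treatments they stood at 100.1%, 100.3% and 96.1% of siControl. The ribosomal proteins summed to 108764.2 TPM in siZIP10 plus DTPA, 94215.6 TPM in siControl plus DTPA and 81102.5 TPM in siZIP10, against 81836.4 TPM in siControl. The ribosomal protein TPM per member TPM was therefore 55.4 to 56.9 in siZIP10 plus DTPA, 48.9 to 49.2 in siControl plus DTPA and 38.7 to 40.3 in siZIP10, against 39.0 to 40.0 in siControl. Both DTPA groups lie above both groups without DTPA, which overlap. In bulk RNA, fewer cells of a type and less RNA per cell cannot be told apart.

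**Figure D4:**
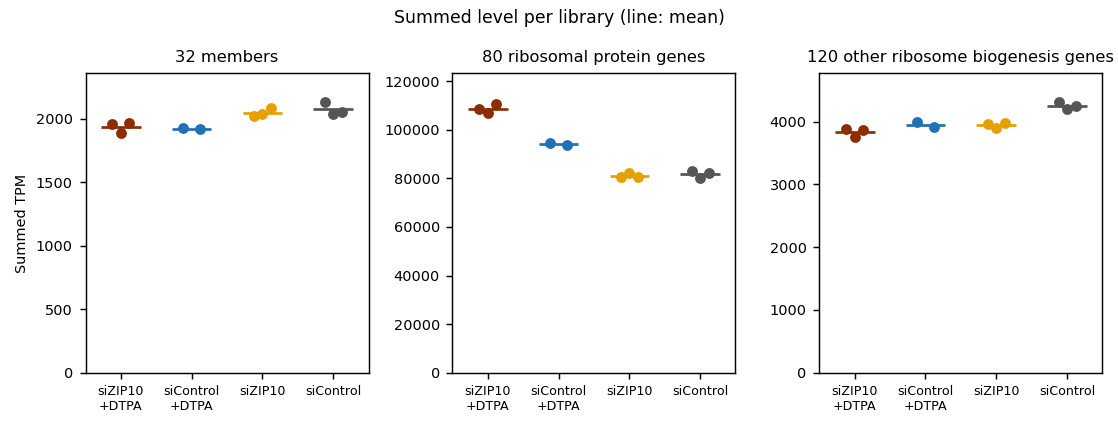
Summed TPM per library of the 32 members, the 80 ribosomal protein genes and 120 other ribosome biogenesis genes, with siZIP10 plus DTPA, siControl plus DTPA, siZIP10 and siControl from left to right. Points are libraries and lines are group means, on axes that start at 0. The ribosomal protein sum is 132.9% of siControl in siZIP10 plus DTPA while the member sum is 93.4%.

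Among the other genes of the pathway more fell than rose, as among all genes. Of 119 tested, 19 rose (16%) and 59 fell (49.6%) in siZIP10 plus DTPA relative to siControl (median -0.16), where 26.7% of all genes rose and 39.9% fell. Scaled by the median of ratios, 26 rose and 45 fell (37.8%, against 34.5% of all genes). In the single treatments, 2 rose (1.7%) and 24 fell (20.2%) with DTPA alone (median -0.10), where 9.98% of all genes rose and 18.8% fell. With the knockdown alone 3 rose (2.5%) and 44 fell (37%), against 13.1% and 17.5% of all genes (median of the pathway genes -0.10). In the RNA polymerase I machinery, 4 of 13 rose and 6 fell with both treatments. Ubtf, which binds and opens ribosomal DNA, fell by 0.70 (SE 0.04, adjusted p = 5.82e-08), and Cd3eap, a polymerase I subunit, rose by 0.28 (SE 0.08, adjusted p = 0.0138). Of 43 small subunit genes, 6 rose, with Rcl1 at 0.39 (adjusted p = 5.4e-06), and 23 fell, with Pno1 at -0.73 (adjusted p = 7.44e-07). Of 50 large subunit genes, 9 rose, with Sbds at 0.43 (adjusted p = 5.73e-08), and 21 fell, with Ftsj3 at -0.90 (adjusted p = 5.11e-09). Of 13 tested genes of the exosome and precursor decay, none rose and 9 fell, with Exosc8 at -0.82 (adjusted p = 2.19e-06).

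**Figure D5:**
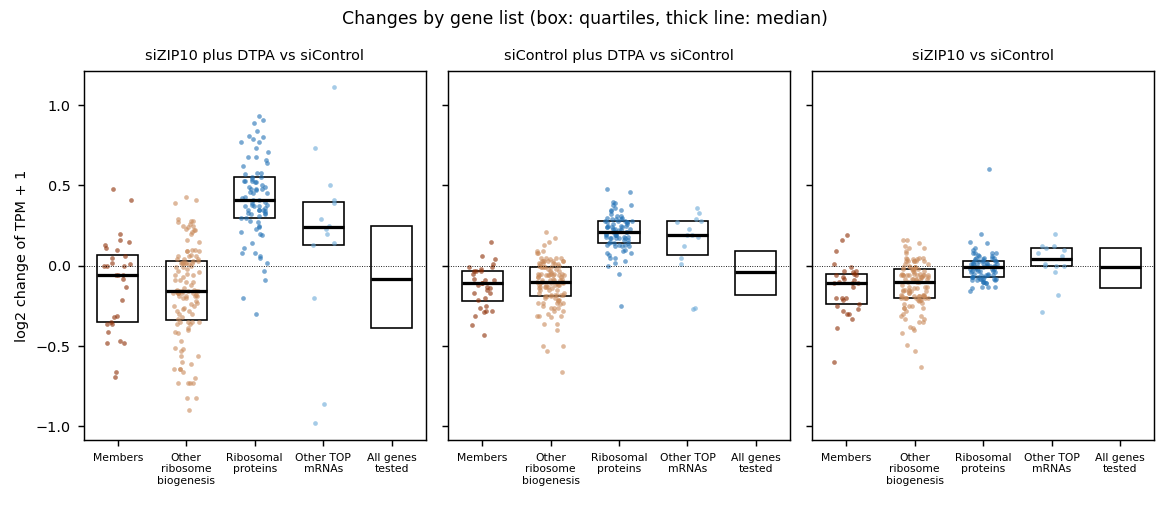
Log2 change of TPM + 1 relative to siControl in siZIP10 plus DTPA, siControl plus DTPA and siZIP10 for the members, other ribosome biogenesis genes, ribosomal proteins, other TOP mRNAs and all genes tested. Points are genes, boxes are quartiles and thick lines are medians. The ribosomal protein median is 0.41 with both treatments and the member median is -0.06.

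Ribosomal protein transcripts belong to the TOP mRNAs, which start with a C followed by a run of pyrimidines and whose translation and stability are regulated together. Of 14 other TOP mRNAs, such as those of translation factors, 11 rose and 3 fell with both treatments (median 0.24). With DTPA alone, 10 rose and 2 fell (median 0.19). Of all genes, 26.7% rose and 39.9% fell with both treatments, and 9.98% rose and 18.8% fell with DTPA alone. Gas5, counted among the 14 and with their largest rise (1.11 with both treatments), is a non-coding RNA. A C followed by at least 4 pyrimidines within 5 bases of the annotated start was a measure chosen after the values were seen. It was present in 49.2% of ribosomal protein genes, 44.4% of other TOP mRNAs and 24% of other ribosome biogenesis genes. Of the 27 members with a promoter window 14.8% had it, and of all genes 21.2%. Many known TOP mRNAs lacked it, so a member without it cannot be classed as outside the TOP mRNAs. The members that have it are Nop10, Gar1, Nip7 and Nolc1, of which Nolc1 fell and the other 3 did not pass the test with both treatments. Myc, whose product is a known activator of ribosome biogenesis genes, was at 56.2, 54.9 and 61 TPM in siZIP10 plus DTPA, 27 and 25 TPM in siControl plus DTPA, and 21.9, 27.6 and 27.3 TPM in siZIP10, against 19.4, 22 and 25.5 TPM in siControl. It rose by 1.33 with both treatments (SE 0.10, adjusted p = 7.64e-07), while the changes of 0.22 with DTPA alone and 0.19 with the knockdown alone had adjusted p = 0.184 and 0.195. Of the 7 tested genes of the MYC network, 3 rose and 2 fell with both treatments. Beside Myc, and named after their values were seen, Mxd1 (0.43, adjusted p = 2.05e-07) and Mnt (0.28, adjusted p = 0.0149) rose. Max (-0.40, adjusted p = 1.74e-07), the binding partner of MYC, and Mxi1 (-0.09, adjusted p = 0.0319) fell. The products of Mxd1, Mnt and Mxi1 are known to oppose MYC at E-boxes, so genes of that kind went both ways. The change of Mxi1 is about as large as the shift of 0.083 that median-of-ratios scaling gave the median of all genes. The members' median change with both treatments was -0.06, and whether Myc bears on any member was not tested.

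Scaling the libraries by the median of ratios instead of using TPM as deposited moved the double treatment's calls upwards. The members then counted 11 that rose and 10 that fell, their median turned to 0.03 (0.02 with the rescaling to other genes), and all genes counted 3812 that rose and 3931 that fell in place of 3041 and 4542. The ribosomal proteins counted 75 that rose and 1 that fell. Bop1, Ddx21, Dkc1, Ebna1bp2, Nhp2, Nolc1, Nop56, Nop58, Pes1 and Wdr12 fell, and Rrp12 and Tsr1 rose, with both treatments under all 19 alternatives. Several members contain other genes. Small nucleolar RNA genes lie within 7 members, with 5 in Nop56, 4 in Nop58, 3 each in Ncl, Gnl3 and Wdr43, 2 in Tsr1 and 1 in Dkc1. Exons of 11 members overlap exons of a gene above 1 TPM on the opposite strand, and the strand setting of the counting is not given in the sources used here. Beside Tsr1 and Bysl, Heatr1 shares 155 bases with Lgals8, which rose by 1.20 with both treatments, and Mybbp1a shares 131 with Spns2, which fell by 0.50, both unlike the member. Dkc1 shares 45 bases with Mpp1, which fell by 0.50, and Bop1 shares 50 with Mroh1, which rose by 0.88.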

How the data were processed

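Poly(A) RNA of G1E-ER4 cells was sequenced from libraries of a stranded kit, per the labels' protocols. The authors deposited TPM values for 55487 genes in each of 12 libraries. The submitters' processing notes name the mm10 build and, as tools, HISAT2 2.1.0, Trimmomatic 0.33, featureCounts, FastQC and edgeR. Their order, their settings, the annotation and strand handling are not given in the sources used. The library labelled siControl plus DTPA replicate 3 repeats siZIP10 replicate 1 and was left out. Reads were recovered from TPM times exon length (GENCODE M21), with 98.9% to 99.1% of values of up to 20 reads whole within 0.1 read.

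The analysis used log2(TPM + 1) of the 11379 genes averaging 1 TPM or more, and limma 3.58.1 with a trend in R 4.3.3 on 4 group means (7 residual and 3.21 prior degrees of freedom). Tests were two-sided, with Benjamini-Hochberg adjustment over genes in each of 6 comparisons, and the procedure was tested on simulated data. The simulated noise was independent between genes and libraries, so that test says nothing of shifts shared by a whole library. Lists are described by counts and medians. Alternatives were a pseudocount of 0.1, no filter, a filter of 5 TPM, median-of-ratios scaling, rescaling to genes other than mitochondrial and ribosomal protein genes, a fit of only the groups compared, a replicate block, the repeated library kept as labelled, and each library left out.

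The members and lists were chosen with earlier results of these data known. Members were all named; values per library were given for the 2 members of each role with the largest change with both treatments, for members called opposite to most of their role, and for Npm1, Ncl and Fbl. Outside the members, the called gene with the largest rise and fall of the ribosomal protein list and of each pathway list, and Myc, were named. Tables were made with pandas 2.3.3 and numpy 2.4.6 in Python 3.11.15, and figures with matplotlib 3.10.9.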

Additional observations from a re-analysis of the deposited data

Results flagged for a closer look

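In 19 members the DTPA effect with the knockdown differed from that without it by the interaction test of limma (adjusted p below 0.05). By that test 50% of members were above 0 and 9.4% below, where 12% of all genes were above and 20.4% below. The difference, on the log2 scale, was 0.56 for Gar1, 0.53 for Nop16, 0.48 for Tsr1, 0.4 for Polr1a, 0.37 for Rrp12 and for Dkc1, 0.36 for Wdr75 and for Nolc1, 0.35 for Ltv1, 0.34 for Rrp9 and 0.33 for Mybbp1a. It was 0.24 for Nop58 and for Fbl, 0.21 for Wdr43, 0.2 for Heatr1 and 0.13 for Nop10. It was below 0 for Npm1 (-0.16), Nhp2 (-0.24) and Ebna1bp2 (-0.32). The calls of Tsr1, Ltv1, Mybbp1a, Nolc1 and Fbl held under all 18 alternatives that gave a value, while those of Heatr1, Wdr43 and Npm1 held under 6 and those of Nop10 and Nhp2 under 7.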

How the results depend on the processing

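No called change of a member turned its direction under any alternative, but the members' median with both treatments (-0.06) turned to 0.03 and 0.02 under the 2 scalings. Leaving out each library gave 7 to 12 members lower with DTPA alone, 1 to 2 higher and 6 to 12 lower with the knockdown alone, 2 to 6 higher with both, 5 to 9 higher with the knockdown within DTPA, and 6 to 15 above and 1 to 3 below 0 in the interaction. For ribosomal protein genes it gave 4 to 9 higher and 5 to 14 lower with the knockdown alone, and 1 to 3 below 0 in the interaction. With no filter on low values, 6 members were lower with the knockdown alone, 3 were higher with both, 8 were above and 1 below 0 in the interaction, and 4 ribosomal protein genes were higher with the knockdown alone. Median-of-ratios scaling gave 11 members higher with both treatments, 17 higher with DTPA within the knockdown and 1 below 0 in the interaction, and rescaling to the other genes gave 9, 17 and 1. Ribosomal protein genes below 0 in the interaction numbered 1 under both scalings, and 1 was lower with both treatments under the median of ratios. The scalings moved the median of all genes by at most 0.086 in any comparison. Keeping the repeated library as labelled puts the values of siZIP10 replicate 1, from cells without DTPA, into the siControl plus DTPA group. This gave 6 members lower with the knockdown alone. It also gave 20 ribosomal protein genes higher with DTPA alone, 3 higher and 0 lower with the knockdown alone, and 1 below 0 in the interaction. In the fit of only the groups compared, 1 member and 5 ribosomal protein genes were higher with the knockdown alone. The cause was not tested. Samples share only a replicate number: same-numbered libraries correlated at -0.06 to 0.061 after removal of group means, and others at -0.086 to 0.066. With a replicate block 5 members were higher and 13 lower with both treatments, and 13 were above 0 in the interaction; of the members' results, 179 stayed on their side of the threshold, 9 lost and 4 gained the call. With n = 2 for siControl plus DTPA, effects of that group are the least precise, and TPM shares carry no measure of RNA per cell.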
